A study of Mus musculus with 6 samples.

Results

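The genes described here encode the nuclear subunits of the last part of the mitochondrial respiratory chain: complex III, cytochrome c, complex IV with its assembly factors, and ATP synthase with its inhibitor. The list was drawn up by function, with earlier results of these data known, and each gene was read from its probe set with the highest mean signal. Of the 44 listed genes, 43 were found on the array under 1 gene symbol and 42 passed the filter on dim signals, out of 18192 genes on the array and 13232 tested. Cox7b was not analysed here, and Cox7c was too dim to test.

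Complex III passes electrons from ubiquinol to cytochrome c, complex IV passes them on to oxygen, and both pump protons across the inner mitochondrial membrane. ATP synthase lets the protons flow back and makes ATP. A few subunits are encoded by mitochondrial DNA, and the rest, listed here, by nuclear genes whose proteins are imported. Erythroblasts hold mitochondria, which also house part of heme synthesis, and lose them as they mature into red cells.

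The 6 samples, 3 Rb-null and 3 control, are single-colour expression arrays of bone marrow cells sorted on 2 surface proteins of the red cell lineage, CD71 (the receptor for transferrin) and Ter-119. Rb-null mice had the genotype EpoR-GFPcre/+; Rb fl/fl, and control mice EpoR-GFPcre/+; Rb fl/+, so both carried Cre at the erythropoietin receptor locus and a floxed Rb allele, and deletion was limited to cells in which that locus is or was active. The series title asks how Rb, which restrains entry into S phase, links leaving the cell cycle to making mitochondria. Neither the age of the mice nor whether arrays of a group came from separate animals was stated in the labels, and a p-value therefore covers only the spread of these arrays, part of which may be technical.

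Rb1, the floxed gene, had normalized log2 signals of 12.09, 11.69 and 11.60 on Rb-null arrays 1, 2 and 3, against 11.52, 10.99 and 10.62 on control arrays 1, 2 and 3, so it was higher in the arrays labelled Rb-null in each pair (log2 fold change 0.75, SE 0.31, limma adjusted p = 1.00). The labels do not give which part of the gene is removed, so this signal does not check the genotype, and the groups are used as labelled. Markers of the sorted cells check only the cell type, and for 0 of 9 tested erythroid markers did the groups part without overlap. Klf1 (log2 fold change 0.45) and Tfrc, which encodes CD71 (0.09), were higher in every pair, as were 18.4% of all tested genes. Alas2 (-0.10) was lower in every pair, as were 24.1%. The limma fit with block, variance trend and robust moderation, described below, called Klf1 higher, beside 2.18% of all genes. Alas2, the erythroid enzyme that starts heme synthesis, read 8760 to 10602 on the Rb-null arrays and 9462 to 10602 on the control arrays, and Slc4a1, the anion exchanger band 3, read 9174 to 10221 and 9114 to 10119. Hba-a1 was below the filter on its probe set (at most 27.0 on any array), and Hbb-b1 was not analysed here. The summed intensity of 14 granulocyte markers was 28145 to 57282 on the Rb-null arrays and 38401 to 57653 on the control arrays, beside sums of 40849 to 48853 and 40663 to 43141 for 10 erythroid markers. Both arrays numbered 3 stood apart, with 18S ribosomal RNA control probe sets averaging 542 (Rb-null) and 1231 (control), against 32.6 to 66.2 on the other 4 arrays. Epor, whose locus carries the Cre, read 248, 2228 and 558 on Rb-null arrays 1, 2 and 3 and 2221, 266 and 609 on control arrays 1, 2 and 3, so pairs 1 and 2 were crossed for this gene. The labels were kept.

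As examples of regulatory sequence, 100 bases that end just before the annotated start of 7 genes are printed. They come from RefSeq on mouse build GRCm38.p6, 5′ to 3′ on the gene's strand. By rule, a gene with several annotated starts is shown by the window with the most matches to the searched motifs. The genes were picked by name, and the lower ones all hold a match, so the windows do not show whether matches go with lower signal. Medians of members with and without a motif are given below. The 7 genes are Atp5k, the member with the lowest fold change, at chr5:108434400-108434499 (minus strand), Atp5g2 at chr15:102671048-102671147 (minus), Uqcr11 at chr10:80406822-80406921 (minus), Cox6b1 at chr7:30626115-30626214 (minus), Atp5j at chr16:84834977-84835076 (minus), and also Cycs at chr6:50566570-50566669 (minus) and Atp5b at chr10:128083207-128083306 (plus), which were not lower. Capitals mark a match to one of the searched motifs, described below. They are NRF1 in Atp5k and Atp5g2, ETS in Uqcr11 and Cox6b1, YY1 and then ETS in Atp5j, and Sp1 in Atp5b. The Cycs window holds no match, but a stretch of it (tcgcatgcgc) is close to the NRF1 letters. Matches past the start lie outside the windows, among them ETS letters of Atp5k from base 13 and YY1 letters of Atp5b from base 17. An Sp1 match of Atp5g2 begins at base -6, runs past the start and is left in lower case.
Atp5k: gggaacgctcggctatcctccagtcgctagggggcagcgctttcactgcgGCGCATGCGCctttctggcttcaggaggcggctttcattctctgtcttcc
Atp5g2: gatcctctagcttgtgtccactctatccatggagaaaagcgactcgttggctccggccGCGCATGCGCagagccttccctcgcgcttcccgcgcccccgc
Uqcr11: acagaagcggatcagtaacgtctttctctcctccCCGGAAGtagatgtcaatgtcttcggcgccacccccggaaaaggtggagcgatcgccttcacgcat
Cox6b1: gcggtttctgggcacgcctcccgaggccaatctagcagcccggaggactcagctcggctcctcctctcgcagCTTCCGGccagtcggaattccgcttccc
Atp5j: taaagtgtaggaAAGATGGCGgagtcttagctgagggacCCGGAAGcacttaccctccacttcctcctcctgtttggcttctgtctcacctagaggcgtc
Cycs: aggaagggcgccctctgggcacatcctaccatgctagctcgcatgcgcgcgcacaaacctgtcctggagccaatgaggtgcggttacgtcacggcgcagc
Atp5b: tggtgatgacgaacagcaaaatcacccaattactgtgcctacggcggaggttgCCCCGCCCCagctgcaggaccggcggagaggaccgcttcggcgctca

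Respiratory genes past complex I were lower in Rb-null cells as a group, by a modest amount. The 42 tested genes had a median log2 fold change (Rb-null over control) of -0.34, against -0.04 over all 13232 tested genes, and 37 of them were negative. The largest differences belonged to Atp5k, the small e subunit of ATP synthase (-0.90, SE 0.36), the complex III core protein Uqcrc2 (-0.81, SE 0.43) and the complex IV subunit Cox6c (-0.74, SE 0.32). Cycs, cytochrome c itself, was among the 5 genes on the other side, at 0.33 (SE 0.42), as was Atp5b, the catalytic beta subunit of ATP synthase, at 0.11 (SE 0.30). Without Rb-null replicate 3 the fold change of Atp5k was -0.58 and that of Uqcrc2 -0.44.

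The differences were small beside the spread between arrays of a group. In limma's test without the replicate number 0 of 42 genes passed at an adjusted p under 0.05 (all at limma adjusted p = 1.00), as did 0 genes in all (0%). An unadjusted p under 0.05 with lower signal was reached by 1 member, Atp5k, against 1.51% of all genes, and with higher signal by 0 members, against 2.55%. With the replicate number as a block 0 members again passed (lowest limma adjusted p = 0.108, Atp5k; 0% of all genes), but 20 of 42 had an unadjusted p under 0.05, all with lower signal, against 9.14% of all genes lower and 7.77% higher. A limma fit with the block, a variance trend and robust moderation called 6 members, all lower, namely Uqcrc2, Uqcrq, Cox17, Atp5j, Atp5k and Atp5l (limma adjusted p from 0.0175 to 0.0464), where 1.39% of all genes were called lower and 2.18% higher.

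Counted by pair, 32 of the 42 genes were lower in each of the 3 pairs, against 24.1% of all tested genes, and 0 were higher in each pair, against 18.4%. These pairs were compared after normalization, and on the deposited scale 28 members were lower in each pair. Lower genes numbered 36, 39 and 37 in pairs 1, 2 and 3, and the median differences were -0.21, -0.32 and -0.43. Of the 31 members above a mean log2 signal of 8.34, the lower quartile of the members, 87.1% were lower in every pair, beside 34.5% of the 2207 genes above that level. For 5 members, Cyc1, Uqcrh, Cox7a2, Atp5k and Atp5l, all Rb-null arrays lay below all control arrays after normalization, against 4.78% of all genes, and for 0 members above them, against 5.13%. Above the same signal level the share lower without overlap was 16.1% of the members and 9.97% of all genes. The count of members lower without overlap was 0 on the deposited scale and 2 with the arrays only centred on their medians. It was 8, 15, 16 and 16 without Rb-null replicate 1, Rb-null replicate 2, control replicate 1 and control replicate 3. The count stayed at 5 without Rb-null replicate 3 and without control replicate 2. Groups of fewer arrays part without overlap more easily for any gene. The share over all genes in these smaller fits is not given here, so their counts cannot be set against the shares above. The cause of these changes in the count was not tested.

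**Figure D1:**
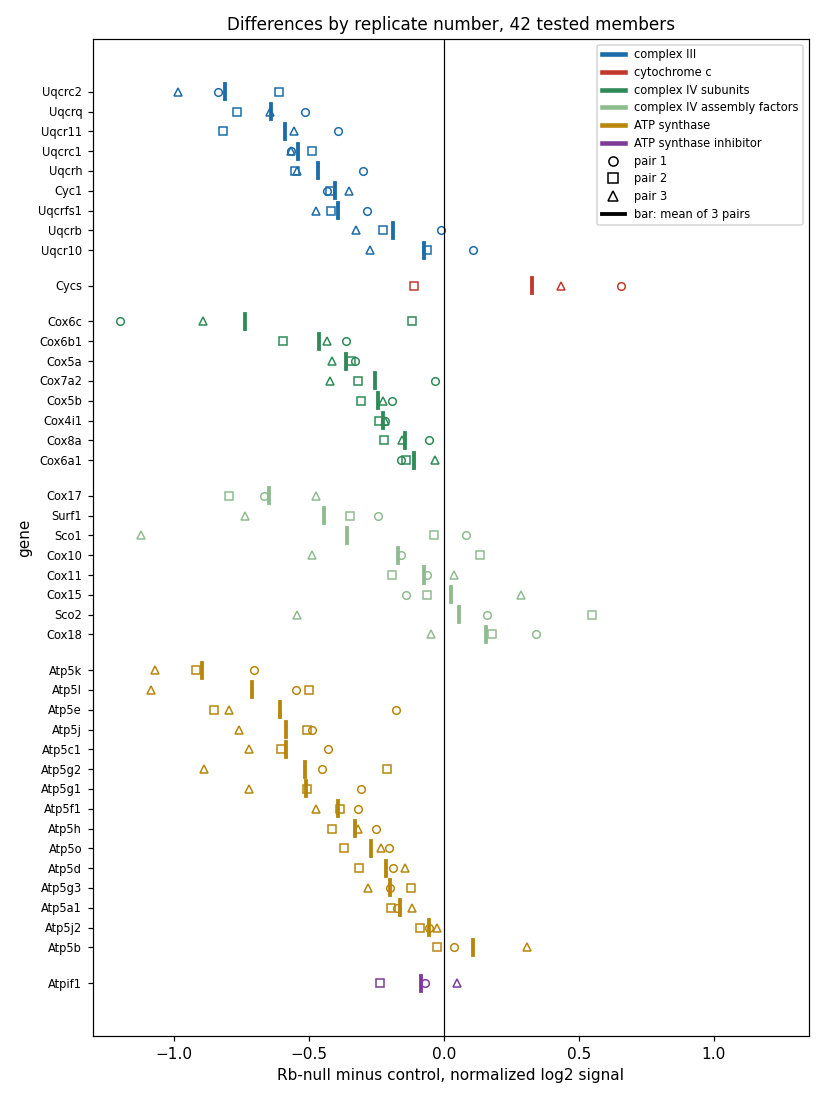
Difference between the Rb-null and the control array of the same replicate number for each of the 42 tested genes, on the normalized log2 scale (x axis), with genes grouped by complex and ordered by their mean (y axis). Open symbols are the 3 pairs and the vertical bar is their mean: 32 genes have all 3 symbols left of 0, and Cycs, Atp5b and most complex IV assembly factors do not.

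Complex III had the lowest median of the 3 complexes. All 9 of its genes had a negative log2 fold change (median -0.47), and 8 were lower in each pair, with pair medians of -0.39, -0.49 and -0.54. The core proteins Uqcrc1 and Uqcrc2, which face the matrix and descend from a processing peptidase, were at -0.54 (SE 0.38) and -0.81.

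Uqcrc2 read 226, 409 and 102 on Rb-null arrays 1, 2 and 3, against 387, 624 and 215 on control arrays 1, 2 and 3. Each Rb-null array was below its partner, but the groups overlapped. Rb-null replicate 2, at 409, lay above control replicate 1, at 387, and the arrays numbered 3 were low in both groups. Its other probe set past the filter, with 180, 300 and 147 in Rb-null cells and 292, 410 and 222 in controls, gave -0.56 (SE 0.27).

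The catalytic subunits differed evenly. Cyc1, cytochrome c1, which hands electrons to cytochrome c, read 1176, 1231 and 941 on the Rb-null arrays and 1444, 1584 and 1202 on the control arrays, a log2 fold change of -0.40 (SE 0.24). Uqcrfs1, the Rieske iron-sulfur protein, read 753, 952 and 455 in Rb-null cells and 848, 1218 and 634 in controls, at -0.39 (SE 0.29). For both genes every Rb-null array was below the control array of its number.

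Among the small subunits, which surround the catalytic core, Uqcrq was lowest. It read 258, 434 and 273 in Rb-null cells and 355, 741 and 439 in controls (-0.64, SE 0.31). Uqcr11 followed at -0.59 (SE 0.32) and Uqcrh, the hinge protein next to cytochrome c1, at -0.47 (SE 0.26). Uqcrb, which helps bind ubiquinone, was at -0.19 (SE 0.26). Its dimmer probe set read 598, 558 and 148 in Rb-null cells and 650, 817 and 275 in controls, with -0.55 (SE 0.48).

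Uqcr10 was the exception. It read 1345, 1646 and 1272 in Rb-null cells and 1148, 1635 and 1499 in controls, with pair differences of 0.11, -0.06 and -0.27, and its fold change of -0.08 (SE 0.26) was 0.00042 with the deposited scaling. The 3 other Uqcrq probe sets past the filter, all dim (at most 99.9), had -0.17, 0.11 and 0.22.

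Cycs, the small heme protein that carries electrons from complex III to complex IV and also triggers the apoptosome when released, did not move with the complexes on either side of it. It read 3256, 2171 and 1310 on Rb-null arrays 1, 2 and 3, against 2056, 2158 and 932 on control arrays 1, 2 and 3. It was higher in Rb-null cells on the deposited scale in every pair, but in pair 2 by so little that after normalization the difference there was -0.11, beside 0.66 in pair 1 and 0.44 in pair 3. Its log2 fold change of 0.33 did not pass limma's test (adjusted p = 1.00, and adjusted p = 0.447 with the block). The other Cycs probe sets past the filter gave 0.48 (SE 0.26) and 0.04 (SE 0.43). Leaving out Rb-null replicate 1 or control replicate 3 took the value to -0.03 and -0.01.

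**Figure D2:**
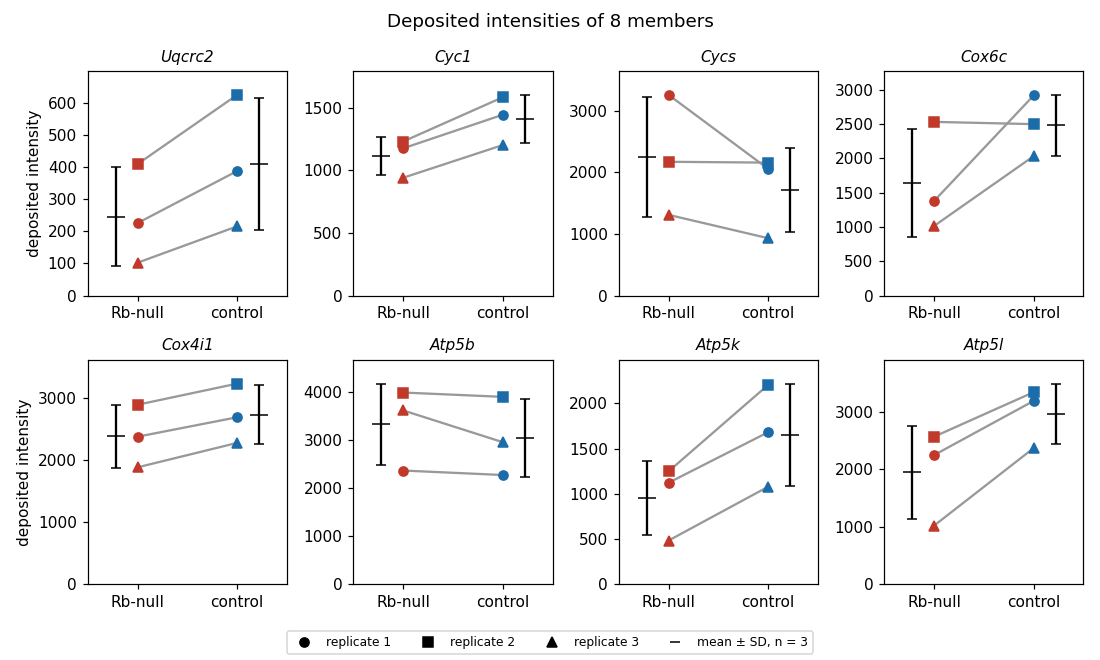
Deposited intensity (y axis, linear, from 0) on the 3 Rb-null and 3 control arrays (x axis) for 8 members. Grey lines join arrays of the same replicate number, and black bars are mean ± SD (n = 3 each): all lines run below the control for Uqcrc2, Cyc1, Cox4i1, Atp5k and Atp5l, and Cycs and Atp5b show no such pattern.

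Complex IV subunits were lower by less. After normalization all 8 tested genes were lower in each of the 3 pairs, with a median log2 fold change of -0.25 and a range from -0.74 to -0.11. Pair medians were -0.20, -0.27 and -0.32. The median was -0.16 both without control replicate 2 and without Rb-null replicate 3.

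Cox6c, a small subunit of the complex, had the lowest value and the least even one. It read 1380, 2533 and 1016 on Rb-null arrays 1, 2 and 3 and 2919, 2501 and 2034 on control arrays 1, 2 and 3. The arrays numbered 2 were alike, with a normalized difference of -0.12, and pair 3 had -0.89, while Rb-null replicate 1 was far below its partner. Its other probe set gave -0.80 (SE 0.63).

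Cox6b1, which lies where complex IV monomers join into a dimer, read 2426, 2195 and 1366 in Rb-null cells and 3116, 3096 and 1880 in controls (-0.46, SE 0.31). Cox5a, a matrix-side subunit, read 1546, 1756 and 457 in Rb-null cells and 1796, 2071 and 617 in controls (-0.36, SE 0.52). Its pair differences lay between -0.41 and -0.33, while the arrays numbered 3 were far below the rest in both groups.

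Cox4i1, the general isoform of the largest nuclear subunit, read 2378, 2893 and 1885 in Rb-null cells and 2691, 3233 and 2279 in controls, a log2 fold change of -0.23 (SE 0.26) with pair differences of -0.22, -0.24 and -0.22. Cox7a2 had -0.26 (SE 0.24), Cox5b -0.24 (SE 0.26) and Cox8a -0.14 (SE 0.37). Cox6a1, the general isoform of the regulatory subunit VIa, had the value nearest 0, with 5840, 5722 and 4395 in Rb-null cells and 6172, 6390 and 4320 in controls (-0.11, SE 0.27). Cox7c read at most 31.6 on any array and was listed at 0 on Rb-null replicate 3, so no fold change is given.

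The assembly factors of complex IV were less even. Of 8 genes, 5 were negative and 2, Cox17 and Surf1, were lower in every pair, and the median was -0.12. It was -0.26 without Rb-null replicate 1 and -0.35 without control replicate 2. Signals of Sco1, Sco2, Cox10, Cox18 and Surf1 were dim, between 17.8 and 141 on all arrays.

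Cox17, the copper chaperone of the intermembrane space that supplies Sco1 and Cox11, read 842, 476 and 249 on Rb-null arrays 1, 2 and 3 and 1219, 819 and 356 on control arrays 1, 2 and 3 (-0.65, SE 0.48). Levels differed more between replicate numbers than between groups, and each Rb-null array was below its partner. The value was -1.03, -0.33, -0.25 and -1.05 without Rb-null replicate 1, Rb-null replicate 3, control replicate 1 and control replicate 3. Surf1, needed early in building the Cox1 module, read 70.2, 101 and 52.7 in Rb-null cells and 89.6, 133 and 96.5 in controls (-0.44, SE 0.28).

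The paired copper proteins Sco1 and Sco2, which both serve the copper site of Cox2, had values of opposite sign. Sco1 read 107, 104 and 38.8 in Rb-null cells and 104, 106 and 99.7 in controls, so its fold change of -0.36 (SE 0.32) rested on Rb-null replicate 3 and was 0.02 without both arrays numbered 3. Sco2 read 41.5, 34.2 and 56.1 in Rb-null cells and 37.6, 17.8 and 87.7 in controls (0.06, SE 0.46). Whether the 2 genes differ in their fold change was not tested.

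Cox11, which also delivers copper, had -0.07 (SE 0.56). Its dimmer probe set read 42.2, 33.9 and 32.8 in Rb-null cells and 22.4, 24.6 and 15.4 in controls, with 0.52 (SE 0.22). The heme A synthesis enzymes Cox10 and Cox15 had -0.17 (SE 0.44) and 0.03 (SE 0.26), and the 3 dimmer Cox15 probe sets had -0.27 to -0.45. Cox18, which inserts Cox2 into the membrane, had the highest value of the assembly factors at 0.16 (SE 0.27), with 116, 125 and 64.1 in Rb-null cells and 90.8, 107 and 66.9 in controls.

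ATP synthase lay between complexes III and IV. Of its 15 genes, 14 were lower in each pair, and the median log2 fold change was -0.39, with pair medians of -0.25, -0.38 and -0.47. That median was -0.23 without control replicate 2 and -0.65 without Rb-null replicate 2. By part, the medians were -0.71 for the 3 small membrane subunits (range -0.90 to -0.06) and -0.51 for the 3 genes of the c ring (-0.52 to -0.20). They were -0.36 for the 4 genes of the peripheral stalk (-0.59 to -0.27) and -0.22 for the 5 genes of the F1 head and central stalk (-0.61 to 0.11). These ranges overlapped, and whether the parts differ was not tested.

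Atp5k and Atp5l, subunits e and g, sit in the membrane where ATP synthase dimers join. Atp5k read 1123, 1249 and 485 on Rb-null arrays 1, 2 and 3, against 1682, 2205 and 1080 on control arrays 1, 2 and 3, and its pair differences were -0.70, -0.92 and -1.07. Its other probe sets had -1.06 and -0.78. Atp5l read 2250, 2570 and 1022 in Rb-null cells and 3194, 3345 and 2372 in controls (-0.71, SE 0.34), and its fold change was -0.39 without Rb-null replicate 3. On the deposited scale, each gene had Rb-null values that reached above the lowest control.

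The third small membrane gene, Atp5j2 or subunit f, depended on the probe set. The brighter read 3543, 3462 and 3939 in Rb-null cells and 3715, 3420 and 3964 in controls (-0.06, SE 0.26). The dimmer read 821, 1280 and 986 in Rb-null cells and 955, 2076 and 1544 in controls, with -0.59 (SE 0.32). The suffix of the brighter one marks probes that match several transcripts.

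The c ring, the rotor turned by protons, is built from a single mature protein that 3 genes encode with different import signals. Atp5g1 read 196, 388 and 149 in Rb-null cells and 240, 552 and 253 in controls (-0.51, SE 0.37). Atp5g2 read 160, 410 and 196 in Rb-null cells and 222, 472 and 377 in controls (-0.52, SE 0.39). Atp5g3 read 2605, 3356 and 1397 in Rb-null cells and 2939, 3397 and 1683 in controls (-0.20, SE 0.36). All 3 were lower in every pair. Pair differences were -0.31, -0.51 and -0.72 for Atp5g1, -0.45, -0.21 and -0.89 for Atp5g2, and -0.20, -0.12 and -0.28 for Atp5g3. Those of Atp5g3 were the nearest to 0 in each pair, and the difference between the genes was not tested.

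The peripheral stalk holds the F1 head still against the rotor. Its genes were lower in every pair, Atp5j (F6) at -0.59 (SE 0.31), Atp5f1 (subunit b) at -0.39 (SE 0.44), Atp5h (subunit d) at -0.33 (SE 0.28) and Atp5o (the oligomycin sensitivity protein) at -0.27 (SE 0.30). Atp5j read 760, 1252 and 579 in Rb-null cells and 987, 1717 and 1016 in controls.

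The F1 head holds the catalytic ring and the central stalk turns inside it. Atp5a1, the alpha subunit, read 1566, 2610 and 2155 in Rb-null cells and 1656, 2798 and 2433 in controls (-0.16, SE 0.30), while its further probe sets gave -0.58 (SE 0.34) and -0.37 (SE 0.37). Atp5b, the beta subunit that holds the catalytic sites, read 2366, 3988 and 3616 in Rb-null cells and 2273, 3898 and 2956 in controls, higher in Rb-null on the deposited scale in all pairs and with normalized pair differences of 0.04, -0.03 and 0.31. The central stalk genes Atp5c1 (gamma) and Atp5e (epsilon) had -0.58 (SE 0.36) and -0.61 (SE 0.46), and Atp5d (delta) had -0.22 (SE 0.27). The dimmer probe set of Atp5c1 gave 0.17 (SE 0.28). Atpif1, which blocks the enzyme when it runs backwards, read 4492, 3728 and 3500 in Rb-null cells and 4796, 4314 and 3406 in controls (-0.09, SE 0.28).

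The 3 complexes were compared by their medians, without a test. Of the alternative settings 13 changed the fold change of at least 1 member, and in all 13 complex III and ATP synthase were each below the complex IV subunits. Without Rb-null replicate 1 the gap was narrow, at -0.32 for ATP synthase and -0.31 for complex IV subunits. Complex III was below ATP synthase in 11 of 13, the exceptions being the fits without Rb-null replicate 2 and without control replicate 3. Complex IV subunits were below their assembly factors in 12 of 13, the exception being the fit without control replicate 2. Without both arrays numbered 3 the medians were -0.43 for complex III, -0.33 for ATP synthase, -0.24 for complex IV subunits and -0.06 for the assembly factors.

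**Figure D3:**
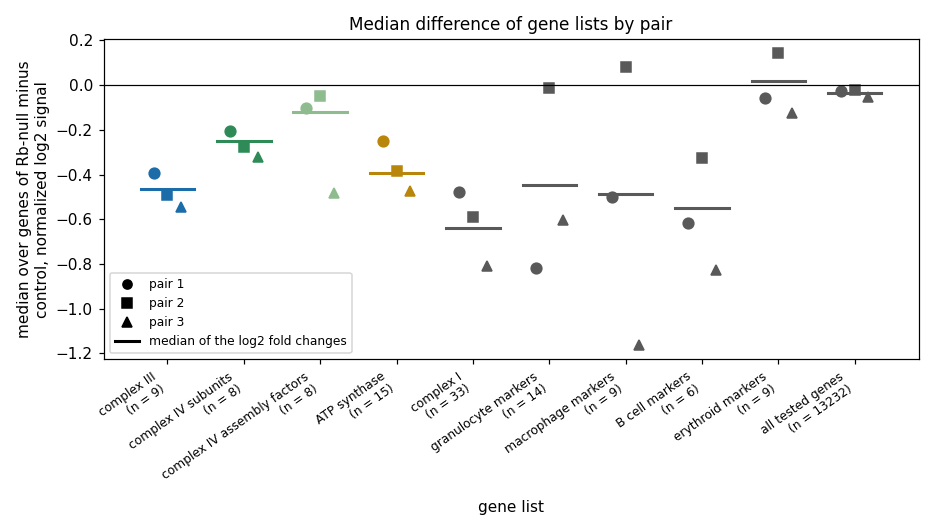
Median difference between Rb-null and control signal over the genes of each list (y axis, normalized log2 scale), for pairs 1, 2 and 3 (symbols) and for the log2 fold changes of the fit (line), with the number of tested genes under each list (x axis). The 3 complexes and complex I lie below 0 in all pairs, as do the B cell markers, while the granulocyte and macrophage markers lie near 0 in pair 2.

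Other genes of the pathway were read from the same fit. All 33 tested complex I subunits, which feed electrons into the chain, were negative (median -0.64), and 31 were lower in every pair. In limma's test 0 passed at an adjusted p under 0.05, without or with the block alone. With the block 26 had an unadjusted p under 0.05, all with lower signal, against 9.14% of all genes lower. The limma fit with block, variance trend and robust moderation called 11, all lower, against 1.39% of all genes called lower. The lowest p belonged to Ndufa3 at -1.04 (SE 0.27), Ndufs1 at -0.94 (SE 0.30) and Ndufa1 at -0.71 (SE 0.25). Of the 4 complex II genes 3 were lower in every pair, Sdha, Sdhb and Sdhc, and Sdhd was at 0.14 (SE 0.32). Of 21 further assembly factors 15 were negative and 8 lower in every pair (median -0.18), with the lowest p for Coa3 (-0.64, SE 0.31), Cox19 (-0.46, SE 0.26) and Pet100 (-0.49, SE 0.34). Of 6 tested tissue isoforms 4 were negative (median -0.08), with 3 lower and 1 higher in every pair. Cox6b2, known from testis, had -0.83 (SE 0.36), and Cox7a2l, which links complexes III and IV, -0.58 (SE 0.44). Cox6a2, at 0.27 (SE 0.39), was the one higher in every pair. The carriers that exchange ATP and import phosphate, Slc25a4, Slc25a5 and Slc25a3, had 0.18, -0.07 and -0.20.

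Markers of other cell types moved in part with these genes. The granulocyte markers, 14 of 15 on the array and all 14 negative, had a median of -0.45, with pair medians of -0.82, -0.01 and -0.61, and 7 were lower in every pair. The 9 macrophage markers had pair medians of -0.50, 0.08 and -1.16, and the 6 B cell markers of -0.62, -0.33 and -0.83, below 0 in each pair. For the 3 tested T and NK cell markers they were -0.36, 0.28 and 0.92, and for the 3 tested megakaryocyte markers 0.04, 0.07 and -0.40. Summed macrophage intensities were 1322 to 1717 in Rb-null cells and 1667 to 2849 in controls, and those of 6 B cell markers 259 to 386 and 456 to 735. The 9 tested erythroid markers had a median of 0.02 and ran from -0.20 to 0.45 (Klf1), with 2 higher and 1 lower in every pair. Actin control probe sets, 3′ over 5′, gave ratios of 1.43, 1.10 and 1.01 on Rb-null arrays 1, 2 and 3 and 1.67, 1.15 and 1.18 on control arrays 1, 2 and 3, lower in each pair. Those of Gapdh gave 1.17, 1.38 and 0.737 on Rb-null arrays 1, 2 and 3 and 1.16, 1.34 and 0.948 on control arrays 1, 2 and 3, lower in pair 3 only. The part of these markers and ratios in the results was not tested. In bulk samples fewer cells of a type and less RNA per cell cannot be told apart.

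How the replicate numbers bear on the members was described from their levels. For 36 of 42 genes the range over the 3 replicate numbers, each the mean of its 2 arrays, exceeded the size of the fold change, with a median range of 0.62 on the log2 scale. The ranges of Cox11, Cox17 and Cox5a were the widest, at 1.61, 1.50 and 1.45, all 3 with their lowest level on the arrays numbered 3. The standard error without the block was 2.03 times that with it, in the median over members.

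Further probe sets gave a second reading of 25 members. Of 38 such probe sets past the filter, 28 were negative, with a median of -0.26. Of the 22 with a mean log2 signal above 8, a level set after the values were seen, 20 were negative (median -0.41), and the 2 positive ones were both of Cycs. Of the 16 dimmer ones 8 were negative (median 0.00). Probe sets of opposite sign were found for 7 of the 25 genes, Atp5c1, Atpif1, Cox11, Cox15, Cox5b, Uqcr10 and Uqcrq, against 46.2% of all genes with several. Of the 42 chosen probe sets 8 carry the suffix s and 2 the suffix x, for probes shared with other transcripts or sequences, so for these genes signal from near-identical copies cannot be told apart. Their median was -0.32, beside -0.34 for the others.

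**Figure D4:**
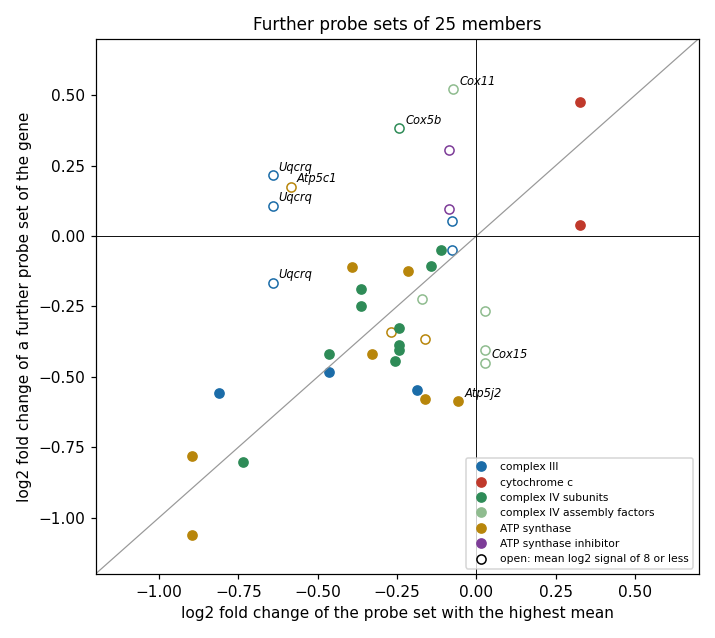
Log2 fold change of each further probe set past the filter (y axis) against that of the probe set used for the gene (x axis), for the 25 members with more than 1, coloured by complex, with the grey line at equality. Filled points, with a mean log2 signal above 8, lie in the lower left except for the 2 of Cycs, and names mark gaps over 0.45.

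Promoters of 35 of the 44 genes were matched in RefSeq (build GRCm38.p6, 250 bases before to 50 after each start) and searched on both strands. The palindromic consensus of NRF1, a transcription factor known for respiratory genes, with any base allowed at 1 position, was found in 9 of the 35, or 25.7%, beside 10.1% of 10594 tested genes with a promoter and 5.19% of all 27025 genes in the table. Those of ETS factors (CCGGAAG), the family of GABP, were found in 14, or 40%, beside 17.8% and 9.93%, and those of YY1 (AANATGGCG) in 5, or 14.3%, beside 5.28% and 2.76%. At least 1 of these 3 was present in 22 of 35 members and in 29.0% of tested genes. E2F letters (TTTCCCGC or TTTGGCGC) were found in 2 members, Cox5a and Cox8a (5.71%, beside 3.22% and 1.80%), those of estrogen-related receptors (TCAAGGTCA) in 1, Atp5g3 (2.86%, beside 0.368% and 0.466%), and those of Sp1 (GGGGCGGGG) in 4 (11.4%, beside 22.6% and 12.9%).

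Of the printed windows, that of Atp5k holds the NRF1 letters from base -50 and that of Atp5g2 from base -42, counted back from the start. Cox6b1 holds the ETS letters, on the other strand, from base -28, Uqcr11 from -66, and Atp5j from -61 with YY1 letters from -88. Members with the ETS letters had a median log2 fold change of -0.45 (14 genes) and those without -0.24 (19 genes). For NRF1 the medians were -0.33 (9 genes) and -0.31 (24 genes), and for YY1 -0.09 (5 genes) and -0.36 (28 genes). These are descriptions of letters in short windows, without a test, and say nothing of binding.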

How the data were processed

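The deposited intensities are a series table of 1 value per probe set and array, on a linear scale. The step from scans to intensities, scaling included, was not given in the sources used here. The median intensity was 23.3 to 31.2 per array, and precision is limited by having 3 arrays a group. Groups and replicate numbers come from the titles. Of 45101 probe sets, 64 controls, 4 empty ones and 1 with a value beyond a 16-bit scanner were left out. Of the 45032 kept, 34941 carried 1 gene symbol, 932 several and 9159 none, and only those with 1 were used. Atp5f1 was found through its newer symbol.

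Values were taken as log2(intensity + 16) and quantile normalized. Genes were represented by the probe set with the highest mean among those above the 40th percentile (log2 5.12). Fold changes are on this scale and understate changes of dim genes. The groups were compared by limma 3.58.1 in R 4.3.3 (2-sided moderated test, Benjamini-Hochberg over 13232 genes, threshold 0.05), and SE is that of this fit, or for further probe sets of a fit over all probe sets. The code was tested on simulated data. Exact permutation of 3 against 3 arrays cannot go below p = 0.1 and was not used.

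The members and lists were chosen with earlier results of these data known. All 44 members are named, those leading a role in full, and of each other list at most the 3 with the smallest p. Deviations of arrays with the same number from their group means correlated across genes at 0.636, 0.615 and 0.653, and no other couple above 0.0370, so the numbers, taken from the titles, were used as pairs. The labels do not say what the numbers stand for. Alternatives covered the block, scaling, offset, filter, probe set choice, each array left out, array weights and variance moderation. Promoters come from RefSeq.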

Additional observations from a re-analysis of the deposited data

How the results depend on the processing

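Between 34 and 38 of the 42 members were negative under every alternative, and the medians of the 3 complexes, of the assembly factors and of all members stayed below 0. Over the fits that leave out 1 array the median ran from -0.39 to -0.23 for all members, -0.61 to -0.38 for complex III, -0.35 to -0.16 for complex IV subunits, -0.35 to -0.11 for assembly factors and -0.65 to -0.23 for ATP synthase. The count lower in every remaining pair was 33 to 35, and the count with groups that do not overlap 5 to 16. That count was 0 with the deposited scaling, 2 with median centring and 16 without both arrays numbered 3. In fits with fewer arrays groups part more easily for any gene, and the share over all genes there is not given here. With the replicate block 0 members passed, as without it, and with a trend and robust moderation beside the replicate block 6 did. The block left every fold change as it was and changed no other call.

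In the fits that leave out 1 array, 26 of 42 members stayed negative, as 27 kept their sign. The other 15 changed sign: Atp5a1 ran from -0.35 to 0.025, Atp5b from -0.049 to 0.30, Atp5f1 from -0.75 to 0.0074, Atp5g3 from -0.46 to 0.10, Atp5j2 from -0.17 to 0.070, Atpif1 from -0.24 to 0.057, Cox10 from -0.57 to 0.24, Cox11 from -0.62 to 0.42, Cox15 from -0.077 to 0.12, Cox5a from -0.83 to 0.13, Cox6a1 from -0.26 to 0.018, Cox8a from -0.46 to 0.13, Cycs from -0.035 to 0.61, Sco2 from -0.35 to 0.57 and Uqcr10 from -0.21 to 0.029. Leaving out 1 array of a pair adds the level of that replicate number to the difference. With the mean of all probe sets Atpif1 had 0.11, Cox11 0.22 and Cox15 -0.27. Without both arrays numbered 3 Cox15 had -0.10, Sco1 0.022 and Uqcr10 0.024. Array weights gave Cox15 -0.062, an offset of 64 gave Sco2 -0.010, and Uqcr10 had 0.00042 with the deposited scaling and 0.00093 with median centring. The count lower in every pair was 28 with the deposited scaling and 29 with median centring. The cause of these changes was not tested. The scanner files were not used here, so no other background correction was run.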
